A study of Homo sapiens with 6 samples.

Results

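The set described here is 34 genes of the unfolded protein response of the endoplasmic reticulum, chosen by name from knowledge of the pathway. Earlier results of these data were known when they were chosen, so the set as a whole was given no p-value. All 34 were among the 23519 genes present in each of the 3 deposited tables, and all 34 passed the filter on low values. They comprised 12 chaperones and co-chaperones, 5 disulfide oxidoreductases, 9 genes of degradation, 4 genes of the sensor group, and 4 genes of translocation and export. The sensor group holds the sensors ERN1, ATF6 and EIF2AK3 and the transcription factor XBP1. Medians given for sensors are of this group of 4. The cells were SKM-1, a human line of acute myeloid leukaemia preceded by myelodysplastic syndrome. Poly-A selected RNA was read from 2 libraries of cells treated with BOR (BOR 1 and BOR 2), 1 library treated with VEM, 1 library treated with both (VEM+BOR) and 2 untreated libraries (untreated 1 and untreated 2). VEM stands for vemurafenib, an inhibitor of RAF kinases, while BOR is not spelled out in the labels. No source used here gives doses, times, the vehicle, or whether the 2 libraries of a group are separate cultures. All groups are of 1 cell line, and p-values measure no more than the spread between these libraries, whose origin may be technical.

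The unfolded protein response adjusts the folding capacity of the endoplasmic reticulum to its load of unfolded protein. The membrane sensors IRE1 (gene ERN1), ATF6 and PERK (gene EIF2AK3) are held inactive by the chaperone BiP (gene HSPA5) and are released when unfolded protein accumulates. IRE1 splices XBP1 mRNA to yield an active transcription factor, ATF6 is cleaved to release one, and PERK slows translation while favouring synthesis of ATF4. XBP1 and ATF6 then induce chaperones, oxidoreductases and the machinery that draws misfolded proteins out for degradation, in part through promoter elements called ERSE, ERSE-II and UPRE.

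Promoters from RefSeq (GRCh38.p14, 250 bases before to 50 after each start) were held for 30 of the 34 genes. On either strand, ERSE (CCAAT, then 9 bases of any kind, then CCACG) was found in 7 genes, HSPA5, HSP90B1, CALR, CANX, CRELD2, PDIA6 and XBP1, and in 0.0769% of all 35116 promoters. ERSE-II (ATTGG, then 1 base of any kind, then CCACG) was found in HERPUD1, HYOU1 and SDF2L1 and in 0.0541% of all promoters. UPRE (TGACGTGG) was found in DNAJC10 and HYOU1 and in 0.729% of all promoters. In HYOU1 a UPRE match shares bases with an ERSE-II match. In all, 11 of 30 genes held at least 1 of these words, against 0.857% of all promoters. A match is a description of letters and not evidence of binding. The 4 promoters below are printed because they show each kind of element, and because HSPA5 and HSP90B1 both carry ERSE while lying on opposite sides of the untreated level in BOR 2. Letters run 5′ to 3′ on the strand of the gene, and capitals mark the element.
HSPA5 (ERSE), minus strand, chr9:125241294-125241593: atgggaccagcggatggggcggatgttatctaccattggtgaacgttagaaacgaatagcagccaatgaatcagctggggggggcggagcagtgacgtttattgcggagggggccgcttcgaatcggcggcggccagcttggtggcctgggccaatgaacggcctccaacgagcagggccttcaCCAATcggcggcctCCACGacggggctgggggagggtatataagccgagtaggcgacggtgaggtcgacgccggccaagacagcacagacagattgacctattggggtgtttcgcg
HERPUD1 (ERSE-II), plus strand, chr16:56931892-56932191: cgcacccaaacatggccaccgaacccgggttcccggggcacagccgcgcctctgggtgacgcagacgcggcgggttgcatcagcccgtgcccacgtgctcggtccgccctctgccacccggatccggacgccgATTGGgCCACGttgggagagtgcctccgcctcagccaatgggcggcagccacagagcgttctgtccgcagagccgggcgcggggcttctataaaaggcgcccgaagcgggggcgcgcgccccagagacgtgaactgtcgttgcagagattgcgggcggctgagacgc
HSP90B1 (2 ERSE), plus strand, chr12:103930160-103930459: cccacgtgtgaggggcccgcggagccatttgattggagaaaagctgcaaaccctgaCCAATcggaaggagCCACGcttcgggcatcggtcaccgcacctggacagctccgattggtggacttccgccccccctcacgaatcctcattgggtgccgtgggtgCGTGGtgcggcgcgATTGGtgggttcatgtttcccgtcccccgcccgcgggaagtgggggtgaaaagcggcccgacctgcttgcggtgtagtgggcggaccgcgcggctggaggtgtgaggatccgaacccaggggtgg
DNAJC10 (UPRE, on the opposite strand), plus strand, chr2:182716007-182716306: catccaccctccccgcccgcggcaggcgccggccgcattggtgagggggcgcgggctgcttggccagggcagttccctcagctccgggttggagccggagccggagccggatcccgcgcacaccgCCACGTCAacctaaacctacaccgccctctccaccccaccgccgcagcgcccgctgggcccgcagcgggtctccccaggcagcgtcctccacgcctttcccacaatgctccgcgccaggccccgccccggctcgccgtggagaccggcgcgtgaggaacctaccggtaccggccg

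The 5 libraries other than VEM held 17371022 to 18507606 reads assigned to genes. VEM held 17252404, recovered in the same way. The pair of BOR libraries stood further apart than the untreated pair, with an SD of the log2 difference over 15438 genes of 1.53 for BOR 2 against BOR 1 and 0.68 for untreated 2 against untreated 1. BOR 2 stood apart from all other libraries. Measured from the mean of the untreated libraries, the SD of log2 differences was 1.46, against 0.38 in BOR 1, 0.50 in VEM and 0.53 in VEM+BOR. Differences in BOR 2 also moved with transcript GC content over all genes, with a median log2 difference of -1.42 in the lowest and 0.43 in the highest of 5 equal groups of genes ranked by GC. Scaling by library total in place of size factors moved the median of all genes in BOR 2 to -0.56, against 0.04. Of 12 markers of myeloid blasts, 11 were at 1 or more CPM, reads scaled to the library total, in every library. LYZ was under 1 CPM in VEM and in untreated 2. PTPRC was at 10.8 CPM in BOR 2 and at 175 to 272 CPM in the other libraries. MPO went the other way, at 1677 CPM in BOR 2 and 285 to 1212 CPM in the others. PRTN3 was at 1102 CPM in VEM and 997 CPM in VEM+BOR, against 3060 and 3033 CPM untreated. MPO and ELANE were also below both untreated libraries in VEM and in VEM+BOR. Of 16 markers of other cell types, 5 were in all tables and summed to 7.82 to 22.97 CPM per library. Results that rest on BOR are therefore given for each BOR library. In bulk RNA, fewer cells of a type and less RNA per cell cannot be told apart. The part of BOR 2's general shift in the results below was not tested beyond the values given beside them.

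Of the 34 genes, 23 in BOR 1 and 26 in BOR 2 lay above both untreated libraries, against 29.9% and 43.8% of all genes. In BOR 2 the other 8 lay below both, against 41.7% of all genes. The median log2 difference over the set was 0.33 in BOR 1 and 1.33 in BOR 2. With VEM the median of the set lay at the untreated level. With VEM+BOR 8 of 9 degradation genes and 6 of 12 chaperones lay above both untreated libraries, against 30.1% of all genes. So did 3 of 5 oxidoreductases, 3 of 4 genes of the sensor group and 0 of 4 genes of translocation and export. None of the 34 genes passed the test in any comparison. In limma on log2(value + 1), with Benjamini-Hochberg adjustment over all genes of a table, 0.0% of 15382 genes passed for BOR against untreated, 0.0446% of 15689 for VEM, 0.192% of 15606 for the combination against untreated, and 0.0% of 15438 when VEM+BOR was set against BOR. At an unadjusted p under 0.05 the members numbered 1 for BOR (0.247% of all genes), 0 for VEM (2.54%) and 3 for VEM+BOR (3.01%), each against untreated, and 0 when VEM+BOR was set against BOR (0.291%). The edgeR and DESeq2 tests on recovered reads, run for all but VEM, also called 0 members. The authors' deposited table listed 0 members under an adjusted p of 0.05 in each comparison.

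Values below are normalised read counts on 1 scale for all 6 libraries, rounded to 4 significant digits. Fold changes are differences on the log2(value + 1) scale with their SE, and each comparison with untreated comes from its own deposited table. The log2 difference of a single library is taken from the mean of the untreated libraries.

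**Figure D1:**
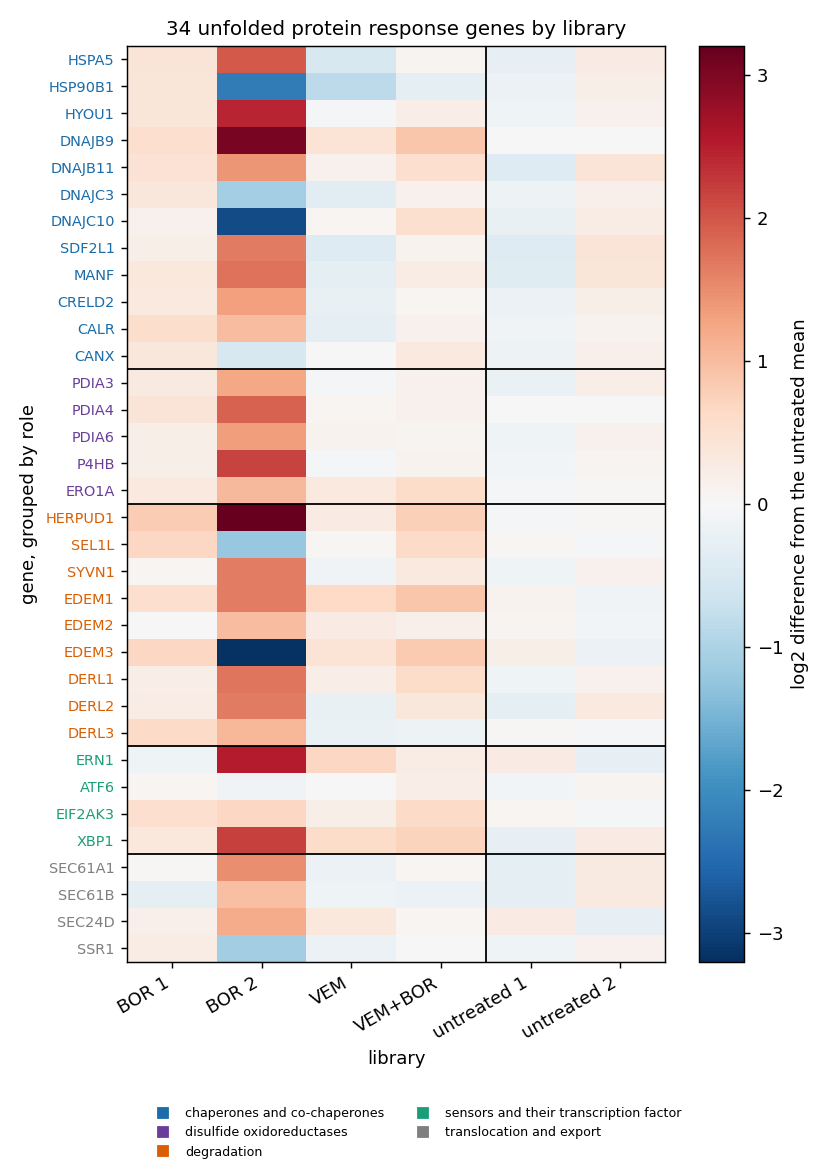
Log2 difference of each of the 34 genes (rows, grouped by role, named in the colour of the role) from the untreated mean in each of the 6 libraries (columns). BOR 2 holds the strongest colours in both directions, with 26 genes above and 8 below the untreated mean, while the colours in BOR 1, VEM and VEM+BOR lie between -0.83 and 0.89.

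Across the set, both BOR libraries lay above both untreated libraries for 17 of 34 genes, against 11.7% of all genes. Both lay below for 0 genes, against 8.24% of all genes. The median log2 change was 0.80 over the members and 0.04 over all genes. In BOR 1 alone 1 member lay below both untreated libraries (20.7% of all genes). In BOR 2 the 26 and the 8 were also above and below every other library, VEM and VEM+BOR included. The matching share of all genes was not counted, so these counts show nothing particular to the members. Over all genes BOR 2 had the widest spread, an SD of 1.46 against 0.38 to 0.53 in the other treated libraries. The libraries of the pair took opposite sides for 7 members, and for 26.3% of all genes. HSP90B1, DNAJC3, CANX, SEL1L, EDEM3 and SSR1 were above both untreated libraries in BOR 1 and below both in BOR 2, and SEC61B the reverse. Untreated 2 was higher than untreated 1 for 24 members, against 50.4% of all genes.

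BOR 2 alone was also set against the untreated pair, with the lone library assumed to vary like that pair. In that limma fit 18 members were called higher (9.74% of 15371 genes) and 6 lower (16.3%). BOR 1 alone gave 0 calls among members and 0.0% of 15383 genes. The calls of BOR 2 alone therefore belong to 1 library and have no replicate.

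HSPA5, on chromosome 9 at chr9:125234853-125241330 (GRCh38, minus strand), encodes BiP, the most abundant Hsp70 chaperone of the compartment and the restraint on the sensors. It had 38050 and 111200 normalised reads in BOR 1 and BOR 2, 19940 in VEM and 30030 in VEM+BOR, against 23810 and 33750 in the untreated libraries. Both BOR libraries were above all others, VEM was the lowest of the 6, and VEM+BOR lay between the untreated libraries. Its mean was 74610 ± 51700 with BOR and 28780 ± 7025 untreated (SD, n = 2 each). The log2 change with BOR was 1.20 (SE 0.67), with a limma adjusted p of 0.968, and BOR 2 alone differed by 1.97 (SE 0.71, adjusted p 0.0650). With VEM the log2 change was -0.51 (SE 0.59) and with VEM+BOR 0.07 (SE 0.62), each with a limma adjusted p of 1.

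HYOU1, a large Hsp70 relative that helps BiP exchange nucleotide, followed the same order in the BOR libraries. It had 6186 and 25310 normalised reads with BOR, 4511 with VEM and 5391 with VEM+BOR, against 4236 and 5194 untreated. The log2 change with BOR was 1.42 (SE 0.73, limma adjusted p 0.968), and in BOR 2 alone 2.43 (SE 0.44, adjusted p 0.00305). DNAJB9, a J-domain co-chaperone that recruits BiP to IRE1 and to clients, had 462.2 and 2616 with BOR, 431.1 with VEM and 592.9 with VEM+BOR, against 321.4 and 317.4 untreated. All 4 treated libraries lay above both untreated ones, which were nearly equal. Its log2 change was 1.78 (SE 0.84) with BOR, 0.42 (SE 0.41) with VEM and 0.88 (SE 0.40) with VEM+BOR, the last with a p of 0.041 before and 1 after adjustment in limma. DNAJB9 exons overlap those of the coding genes PNPLA8 and THAP5 on the other strand, whose reads cannot be told apart here.

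The chaperones did not move together in BOR 2. HSP90B1, the Hsp90 chaperone of the compartment (chr12:103930107-103953645, plus strand), had 16050 and 2581 normalised reads in BOR 1 and BOR 2, 6907 in VEM and 9857 in VEM+BOR, against 10750 and 13960 untreated. BOR 1 was the highest library and BOR 2 the lowest. VEM and VEM+BOR were also below both untreated libraries. BOR 2 alone differed by -2.24 on the log2 scale (SE 0.43, limma adjusted p 0.00431), and BOR 1 lay 0.39 above the untreated mean. HSP90B1 has 2 pseudogenes named after it and its exons overlap other genes, so its counts may include their reads. In all, exons of 20 of the 34 members overlap another gene, 13 of them a coding gene, and HSP90B1, PDIA3, XBP1 and SSR1 have pseudogenes named after them.

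DNAJC10, a J-domain protein that reduces disulfides of proteins due for degradation, had 1341 and 165.4 normalised reads with BOR, 1271 with VEM and 1725 with VEM+BOR, against 1034 and 1421 untreated. Only BOR 2 departed far from the rest, by -2.86 on the log2 scale (SE 0.38, limma adjusted p 0.000671). DNAJC3, which restrains PERK and assists BiP, had 1836 and 668.3 with BOR, 1106 with VEM and 1563 with VEM+BOR, against 1271 and 1579 untreated. CANX, the membrane lectin calnexin, had 21730 and 11920 with BOR, 17150 with VEM and 20860 with VEM+BOR, against 15050 and 18960 untreated. Both were highest in BOR 1 and lowest in BOR 2.

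The remaining chaperones were DNAJB11, SDF2L1, MANF, CRELD2 and CALR. DNAJB11 and SDF2L1 are BiP cofactors, MANF and CRELD2 are secreted or retained stress proteins, and CALR is the soluble lectin calreticulin. They lay 0.98 (CALR) to 1.74 (MANF) above the untreated mean on the log2 scale in BOR 2 alone, and CALR had the smallest such difference among the 8 chaperones that were higher there. CALR had 46620 and 62110 normalised reads with BOR, 25140 with VEM and 34890 with VEM+BOR, against 29130 and 34010 untreated. Per kilobase of exon model CALR was also the most abundant gene of the set, with 711.9 CPM per kilobase in the untreated libraries, ahead of HSPA5 with 447.7. The lowest was ERN1 with 1.04, below DERL2 with 3.11 and EIF2AK3 with 3.14. Exon models include every annotated isoform, so long models lower the value.

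**Figure D2:**
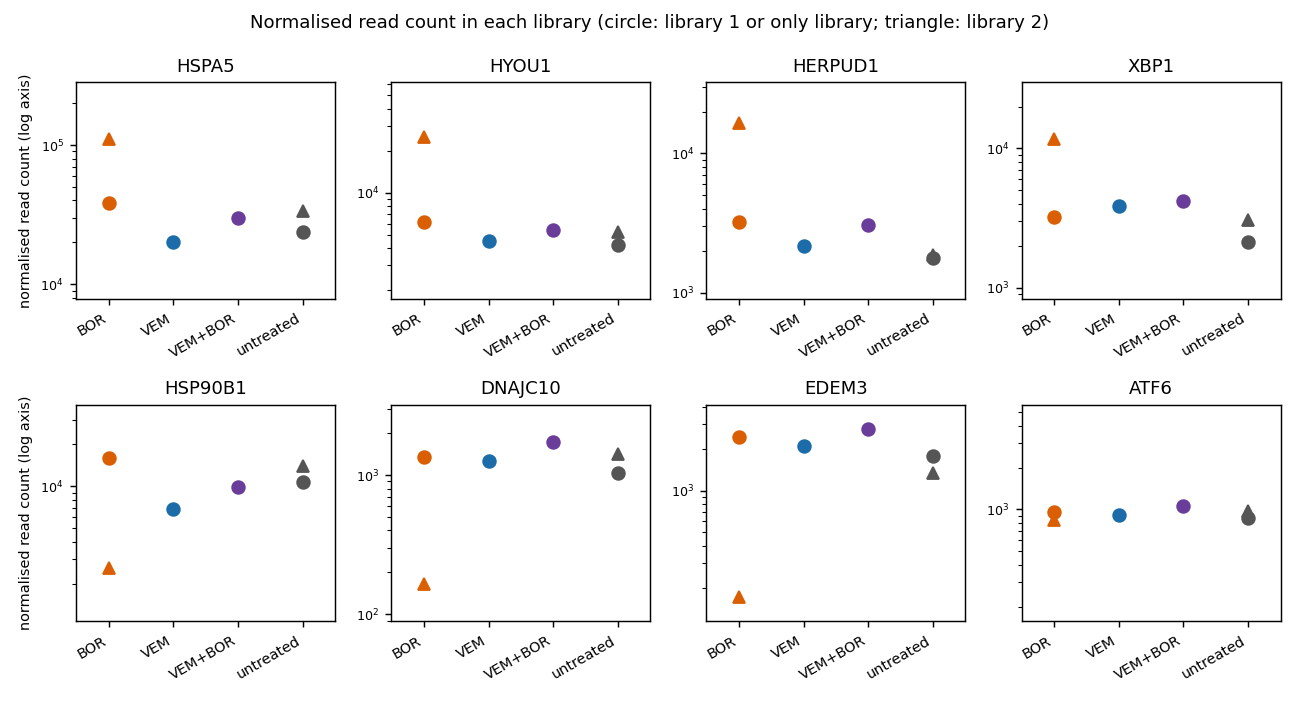
Normalised read count of 8 genes (log axis spanning the same fold range in each panel) in BOR, VEM, VEM+BOR and untreated libraries, with 1 point per library. In HSPA5, HYOU1, HERPUD1 and XBP1 BOR 2 (triangle) is the highest point. In HSP90B1, DNAJC10 and EDEM3 it is far below all others, and the 6 ATF6 points lie close together, from 847 to 1052.

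The 5 oxidoreductases, which form and rearrange disulfide bonds, were all above both untreated libraries in both BOR libraries, against 11.7% of all genes. Their median log2 change with BOR was 0.77, with 0.05 for VEM and 0.12 for VEM+BOR. It was 0.29 for BOR without BOR 2 and 1.34 without BOR 1. Without untreated 1 it was -0.01 for VEM and 0.03 for VEM+BOR, and without untreated 2 it was 0.15 for VEM and 0.22 for VEM+BOR. P4HB, protein disulfide isomerase itself, had 18000 and 71200 normalised reads with BOR, 15360 with VEM and 17050 with VEM+BOR, against 15030 and 16740 untreated. PDIA4, a related gene whose product has an additional thioredoxin domain, had 7922 and 21970 with BOR, 6205 with VEM and 6528 with VEM+BOR, against 6028 and 5894 untreated. In both genes BOR 1 lay slightly and BOR 2 far above the untreated pair. BOR 2 alone differed by 2.17 on the log2 scale for P4HB (SE 0.59, limma adjusted p 0.0225) and by 1.88 for PDIA4 (SE 0.44, adjusted p 0.0117).

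PDIA6, which acts with BiP and attenuates IRE1, had 6959 and 15440 normalised reads with BOR, 6618 with VEM and 6487 with VEM+BOR, against 5575 and 6681 untreated. PDIA3, the partner of calnexin and calreticulin, had 8433 and 16430 with BOR, 6640 with VEM and 7689 with VEM+BOR, against 5969 and 8053 untreated. For both, VEM and VEM+BOR lay between the untreated libraries. ERO1A, the oxidase that recharges protein disulfide isomerase, was above both untreated libraries in each, with 2206 in VEM and 2671 in VEM+BOR, against 1728 and 1806 untreated. Its log2 change was 0.31 (SE 0.37) with VEM and 0.58 (SE 0.37) with VEM+BOR, and neither passed in limma (adjusted p of 1 for each).

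Genes of degradation recognise misfolded glycoproteins, move them back across the membrane and mark them with ubiquitin. HERPUD1 (chr16:56932048-56944863, plus strand) is a membrane adaptor of the ubiquitin ligase complex. It had 3196 and 16560 normalised reads in BOR 1 and BOR 2, 2168 in VEM and 3071 in VEM+BOR, against 1767 and 1873 untreated. All 4 treated libraries were above the untreated pair, whose values differed little. HERPUD1 had the largest log2 change with BOR of the 34 genes, 2.00 (SE 0.80), and was the only one with an unadjusted limma p under 0.05, of 0.044, with an adjusted p of 0.968. The log2 change was 0.25 (SE 0.37) with VEM and 0.74 (SE 0.37) with VEM+BOR. In VEM+BOR against BOR it was -1.24 (SE 0.98, limma adjusted p 0.999).

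The EDEM mannosidases, which trim glycans of proteins due for degradation, split in BOR 2. EDEM1 had 2567 and 5486 normalised reads with BOR, 2746 with VEM and 3254 with VEM+BOR, against 1887 and 1635 untreated. EDEM3 (chr1:184690231-184754913, minus strand) had 2431 and 172.1 with BOR, 2083 with VEM and 2761 with VEM+BOR, against 1756 and 1345 untreated. EDEM1 was above the untreated pair in all 4 treated libraries, and EDEM3 in all but BOR 2, where it had the lowest log2 difference of the set. BOR 2 alone differed by 1.64 for EDEM1 (SE 0.36, limma adjusted p 0.00834) and by -3.15 for EDEM3 (SE 0.36, adjusted p 0.000421). With VEM+BOR the log2 change was 0.88 (SE 0.37) for EDEM1 and 0.83 (SE 0.37) for EDEM3, with p of 0.028 and 0.037 before adjustment and 1 after it in limma.

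SEL1L and SYVN1 form the core of the ubiquitin ligase complex. SEL1L, the adaptor, had 1463 and 398.8 normalised reads with BOR, 958.6 with VEM and 1409 with VEM+BOR, against 950.3 and 908.5 untreated. SYVN1, the ligase, had 804.7 and 2386 with BOR, 704.9 with VEM and 956.8 with VEM+BOR, against 698 and 838.9 untreated. In BOR 2 the partners thus lay on opposite sides of the untreated pair, and in VEM+BOR both lay above it. SYVN1 exons overlap the coding genes FAU and MRPL49. Of the Derlins, the membrane proteins of the exit channel, DERL1 and DERL2 were 1.71 and 1.66 above the untreated mean in BOR 2. DERL3 had 549 and 761.6 with BOR, 312.9 with VEM and 322.3 with VEM+BOR, against 374 and 349.3 untreated. It was the only degradation gene below both untreated libraries in VEM and in VEM+BOR.

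The sensors are controlled chiefly as proteins, and their RNA values differed among them. ERN1 had 163.5 and 1035 normalised reads with BOR, 281.9 with VEM and 211.8 with VEM+BOR, against 213.7 and 150 untreated. BOR 1 was within the untreated range and BOR 2 far above it, by 2.53 on the log2 scale (SE 0.41, limma adjusted p 0.00180). ATF6 had 961.8 and 847 with BOR, 915 with VEM and 1052 with VEM+BOR, against 863.6 and 970.5 untreated. The BOR and untreated values overlapped, with a log2 change of -0.02 (SE 0.44), and VEM+BOR was the highest of the 6. EIF2AK3 had 401.9 and 440.2 with BOR, 312.9 with VEM and 423.6 with VEM+BOR, against 286.4 and 267 untreated. It was the sensor with the closest BOR libraries on the high side, both above the untreated pair, with a log2 change of 0.61 (SE 0.47, limma adjusted p 0.968).

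XBP1 (chr22:28794555-28800597, minus strand), the transcription factor made through IRE1, had 3212 and 11620 normalised reads with BOR, 3850 with VEM and 4161 with VEM+BOR, against 2131 and 3046 untreated. All 4 treated libraries were above both untreated ones. The log2 change was 1.26 (SE 0.69) with BOR, 0.59 (SE 0.39) with VEM and 0.69 (SE 0.39) with VEM+BOR, and none passed in limma (adjusted p 0.968, 1 and 1). Counts per gene do not separate spliced from unspliced XBP1, so the activity of IRE1 was not measured.

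Among genes of translocation and export, SEC61A1 and SEC61B, subunits of the entry channel, had BOR 1 within or below the untreated range. SEC61A1 had 6971 and 19180 normalised reads with BOR, 5975 with VEM and 7095 with VEM+BOR, against 5633 and 8331 untreated. SEC61B had 924.4 and 2260 with BOR, 1043 with VEM and 1004 with VEM+BOR, against 945.9 and 1406 untreated. SEC24D, which selects cargo for export, had 1187 and 2434 with BOR, 1333 with VEM and 1113 with VEM+BOR, against 1274 and 884.3 untreated. SSR1, a subunit of the translocon-associated complex, had 2850 and 1116 with BOR, 2106 with VEM and 2430 with VEM+BOR, against 2186 and 2670 untreated. Only BOR 2 lay far from the untreated range in any of these genes. The median log2 change of the 4 with BOR was 0.51, the lowest of the role groups, against 0.77 to 0.90 in the others. Without BOR 2 it was 0.10, against 0.21 to 0.55 in the others. Without BOR 1 it was 1.09, against 1.34 to 1.64.

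The split within BOR 2 went with base composition and also with transcript length, and the 2 were not separated. The 8 members below the untreated mean there had a transcript GC content of 37.41% to 41.57%, and the 26 above it 37.75% to 65.55%, with a median of 48.3%. The median length of the longest transcript was 7197 bases for the 8 and 3580 bases for the 26. Among members with GC of at most 41.57%, 8 were below and 5 above. The 5 were DNAJB9, DNAJB11, ERO1A, DERL2 and XBP1. In the lowest of the 5 GC groups the median of all genes in BOR 2 was -1.42, and the 10 members in it had a median of -1.10, with 4 above and 6 below the untreated mean. In the other groups 22 of 24 members were above it. The genes of the lowest group had a median of 0.19 in BOR 1, 0.01 in VEM and 0.13 in VEM+BOR. Over the members, Spearman correlations with GC content were -0.21 in BOR 1, 0.44 in BOR 2, -0.28 in VEM and -0.45 in VEM+BOR. With transcript length they were 0.06, -0.37, 0.28 and 0.35 in the same order. Over all genes they were -0.31, 0.46, -0.02 and -0.20 with GC content, and 0.29, -0.20, 0.06 and 0.16 with length.

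**Figure D3:**
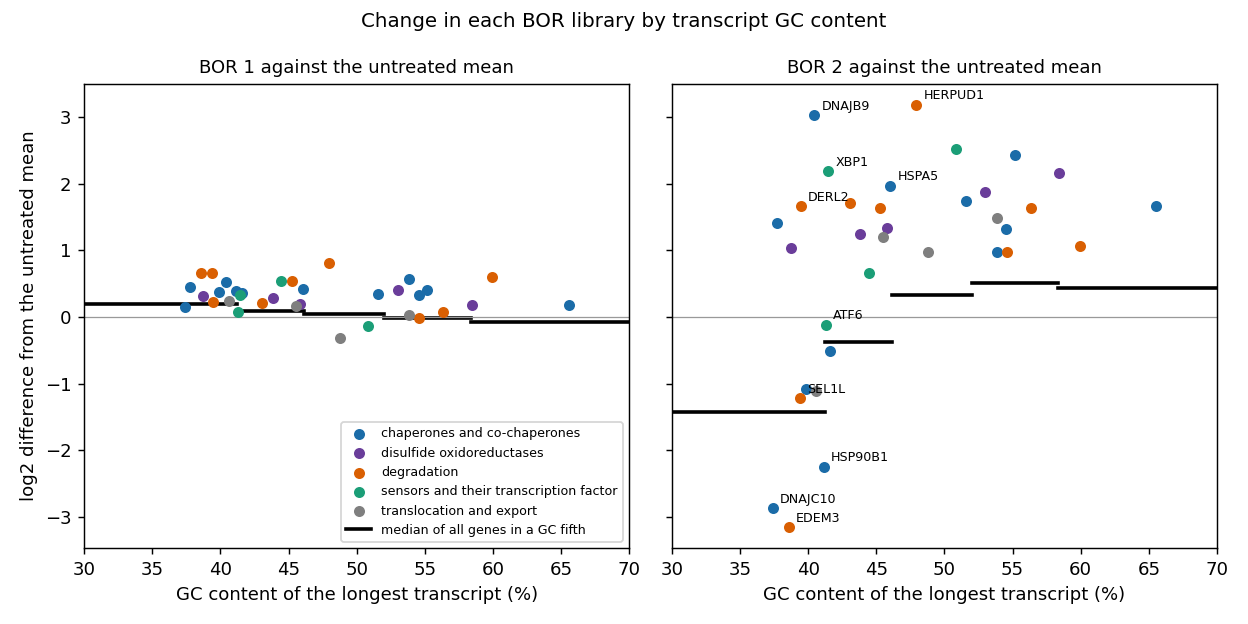
Log2 difference from the untreated mean against the GC content of the longest transcript for the 34 genes (points, coloured by role) in BOR 1 (left) and BOR 2 (right), with the median of all genes in each of 5 equal groups ranked by GC (black lines). In BOR 2 that median is -1.42 in the lowest group, where HSP90B1, DNAJC10 and EDEM3 lie, and 0.43 in the highest, while in BOR 1 the medians run between 0.19 and -0.08.

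With a smooth adjustment of all genes for GC content, the fitted change in BOR 2 alone was positive for 30 members and negative for 4, and positive for 52.9% of all genes. The limma calls were then 19 higher (13.0% of genes) and 3 lower (12.0%). HSPA5 was among the called genes at 2.03 on the log2 scale (SE 0.79, adjusted p 0.0442), DNAJB9 stood at 4.09 and HERPUD1 at 3.01. The 3 called lower were HSP90B1 at -1.32, DNAJC10 at -1.32 and EDEM3 at -1.77. DNAJC3, SEL1L, CANX and ATF6 turned to 0.09, 0.04, 0.34 and 0.78. By CPM, without size factors, 25 of the 26 members higher in BOR 2 remained above both untreated libraries there, against 23.3% of all genes above, and the same 8 remained below, against 61.3% below. Whether the share of BOR 2's pattern that goes with GC content is technical was not tested.

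The 11 genes with an ERSE, ERSE-II or UPRE word had a median log2 difference of 1.34 in BOR 2, with 8 above and 3 below the untreated mean. The 19 genes with a promoter entry and none of these words had a median of 1.41, with 14 above and 5 below. In BOR 1 the medians were 0.36 with the words and 0.31 without. Of the printed promoters, HSPA5 and HERPUD1 belong to genes above the untreated mean in BOR 2 and HSP90B1 and DNAJC10 to genes below it.

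With VEM alone the role groups had medians on both sides of 0, and the differences between role groups were not tested. In VEM 13 of 34 members were above both untreated libraries, against 30.3% of all genes, and 7 below, against 27.6%. The median log2 change was 0.00 over members and over all genes. Of the 12 chaperones 1, DNAJB9, was above both untreated libraries and 5 below, namely HSPA5, HSP90B1, DNAJC3, CRELD2 and CALR. Of the 9 degradation genes 6 were above and 1 below. The medians by role were -0.27 for chaperones, 0.05 for oxidoreductases, 0.21 for degradation, 0.38 for the sensor group and -0.18 for translocation. Within the sensor group the changes were 0.65 for ERN1, -0.01 for ATF6, 0.17 for EIF2AK3 and 0.59 for XBP1. Without untreated 2 the chaperone median was 0.05 and the translocation median 0.08, so their signs rest on that library. Without untreated 1 the chaperone median was -0.42, that of degradation 0.08 and that of translocation -0.39. The largest changes in either direction were -0.83 for HSP90B1 (SE 0.47) and 0.65 for ERN1 (SE 0.47), each with a limma adjusted p of 1.

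With VEM+BOR 20 members were above both untreated libraries (30.1% of all genes) and 2 below (27.9%). HSP90B1 and DERL3 were the 2 below. The median log2 change was 0.19 over the members and 0.01 over all genes. By role the medians were 0.16 for chaperones, 0.12 for oxidoreductases, 0.57 for degradation, 0.41 for the sensor group and 0.02 for translocation. Within the sensor group the changes were 0.23 for ERN1, 0.19 for ATF6, 0.60 for EIF2AK3 and 0.69 for XBP1. Without untreated 1 the chaperone median was 0.01 and the translocation median -0.18, and without untreated 2 they were 0.41 and 0.12. Of the 9 degradation genes 8 were above both untreated libraries, and of the 12 chaperones 6 were. Of 18 further degradation genes outside the set, 4 were above both and 6 below both. The 3 members with an unadjusted limma p under 0.05, DNAJB9, EDEM1 and EDEM3, all had an adjusted p of 1.

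VEM+BOR was higher than VEM for 29 of 34 members, against 55.1% of all genes, including all 12 chaperones and 8 of 9 degradation genes. HSPA5 had 30030 normalised reads with VEM+BOR and 19940 with VEM, and HERPUD1 3071 with VEM+BOR and 2168 with VEM. The exceptions were PDIA6, EDEM2, ERN1, SEC61B and SEC24D. With 1 library on each side this difference has no test.

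Against BOR, VEM+BOR was below both BOR libraries for 13 members (24.2% of all genes) and above both for 3 (22.4%). The median log2 change was -0.57 over members and -0.01 over all genes. The 13 included HSPA5, HYOU1, PDIA4, P4HB and HERPUD1, and the 3 were DNAJC10, EDEM3 and ATF6. Without BOR 1 the median over members was -1.15, against -0.03 over all genes. Without BOR 2 it was -0.06, against -0.01. The comparisons of BOR and of VEM+BOR with untreated share the untreated libraries, and this comparison shares the BOR and VEM+BOR libraries with them.

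**Figure D4:**
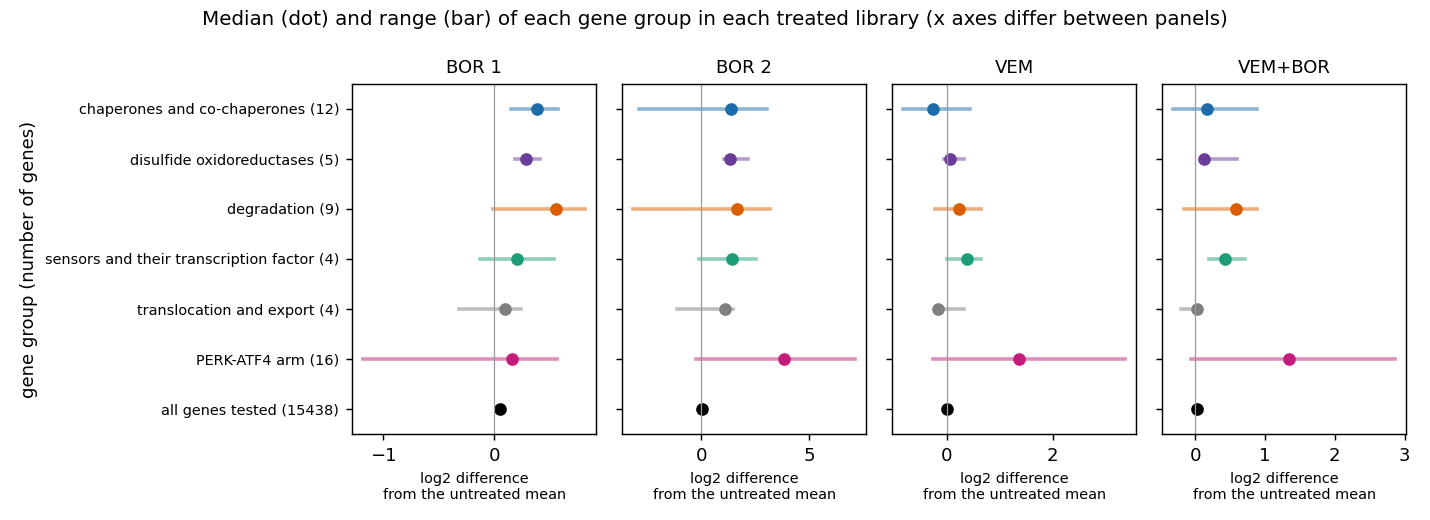
Median (dot) and range (bar) of log2 differences, taken from the mean of the untreated libraries, for each role group, for a list of 16 genes of the PERK-ATF4 arm and, as a dot, for all genes tested, in BOR 1, BOR 2, VEM and VEM+BOR. The horizontal axes differ between panels. The role groups sit close to all genes in VEM while the PERK-ATF4 list is shifted to the right in BOR 2, VEM and VEM+BOR and not in BOR 1.

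Genes around the set were read from lists of other pathway genes. The list named the PERK-ATF4 arm held 16 genes tied to ATF4 or to eIF2α, the target of PERK. Its median log2 change was 1.47 with VEM, 1.33 with VEM+BOR and 1.81 with BOR, over 15, 15 and 16 genes tested. The name is a label, as PERK activity was not measured and other inputs to ATF4 were not separated from it. With VEM 13 of 15 were above both untreated libraries, against 30.3% of all genes, and with VEM+BOR 14 of 15, against 30.1%. DDIT4, an inhibitor of mTORC1 signalling, had 185.4 and 22980 normalised reads with BOR, 1734 with VEM and 1221 with VEM+BOR, against 190.1 and 146.1 untreated. CHAC1, which degrades glutathione, had 140.7 and 2966 with BOR, 854 with VEM and 611.9 with VEM+BOR, against 99.85 and 93.85 untreated. Both genes were called higher in VEM and in VEM+BOR, each 1 library whose spread was taken from the untreated pair and the trend over genes. The log2 change with VEM was 3.37 for DDIT4 (SE 0.41, limma adjusted p 0.00209) and 3.12 for CHAC1 (SE 0.46, adjusted p 0.00707). With VEM+BOR it was 2.85 for DDIT4 (SE 0.42, limma adjusted p 0.00307) and 2.64 for CHAC1 (SE 0.47, adjusted p 0.0190). All 4 calls were lost, at limma adjusted p of 0.967 to 1, with no filter on low values, with all 6 libraries in 1 fit, and without either untreated library. The size of the change then lay between 3.08 and 3.56 for VEM and between 2.60 and 3.05 for VEM+BOR. In the fits without an untreated library the spread came from the BOR pair.

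The stress transcription factor ATF3 had 49.33 and 6788 normalised reads with BOR, 142.8 with VEM and 120.4 with VEM+BOR, against 40.29 and 55.15 untreated. PPP1R15A, which guides dephosphorylation of the PERK target eIF2α, had 151.6 and 4646 with BOR, 151.9 with VEM and 209.1 with VEM+BOR, against 109.5 and 166.4 untreated. In both genes the high value with BOR was that of BOR 2 alone. The whole list had a median log2 difference of 3.83 in the fit with BOR 2 alone and 0.17 in that with BOR 1 alone.

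No gene of the other 4 lists was called in any comparison with untreated. With BOR the median log2 change was 0.26 over 16 regulators, 0.29 over 18 further degradation genes, 0.39 over 22 further folding genes and 0.35 over 30 further translocation and export genes. In the same order they were 0.02, 0.01, 0.02 and 0.08 without BOR 2, and 0.40, 0.82, 0.82 and 0.71 without BOR 1. With VEM the medians were 0.02, -0.15, 0.02 and -0.10 in the same order, and with VEM+BOR 0.04, -0.04, 0.07 and 0.02. HSPA13, an Hsp70 relative of the compartment, had the largest change of the folding list with VEM+BOR against untreated. It had 1116 and 546.9 normalised reads with BOR, 1774 with VEM and 2051 with VEM+BOR, against 955.5 and 781.8 untreated. The log2 change was 1.03 (SE 0.37, limma adjusted p 1) with VEM and 1.23 (SE 0.37, adjusted p 0.392) with VEM+BOR. SELENOS, a partner of the Derlins, had 487.8 and 1789 with BOR, 446.6 with VEM and 585.7 with VEM+BOR, against 320.6 and 551.5 untreated. MBTPS2, the protease that makes the second cleavage of ATF6, had 250.3 and 45.35 with BOR, 332.9 with VEM and 283.3 with VEM+BOR, against 311.8 and 256.4 untreated.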

How the data were processed

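Groups came from the treatment labels. Per the labels' protocols, libraries were made from poly-A RNA and read in pairs, and no strand-marking step is named. The submitters' processing notes name DESeq2 1.20.0, edgeR 3.22.5, HISAT2 2.0.5, CASAVA and featureCounts 1.5.0-p3, while their roles and the genome build are not given in the sources used. Member coordinates equal GENCODE 29 (GRCh38) for 34 of 34 genes. The authors deposited 3 tables of normalised signal, scaled separately, with their own log2 fold changes and p-values, used only where named. BOR and VEM+BOR values were 100% whole multiples of 1 step per library within 0.001, and the recovered reads served edgeR 4.0.16 and DESeq2 1.42.0. Values of the VEM library were also 100% whole multiples, with a step of 0.991 against 0.984 in VEM+BOR. Its reads were nevertheless not used for edgeR or DESeq2. As the tables hold no raw counts, the test was limma (version 3.58.1, R 4.3.3), run on log2(value + 1) with a trend of variance on level, for genes averaging at least 10, adjusted within a table, threshold 0.05, two-sided. VEM+BOR against BOR used genes in all tables on 1 median-of-ratios scale. A lone library was assumed to vary like the replicated groups. GC content is that of the longest transcript, and the adjustment is a lowess curve. Neither replicate pair agreed within sampling noise: the chi-square divided by its degrees of freedom was 261 for BOR and 40.9 for untreated. The fit was tested on simulated data with a fixed spread between libraries, not the spread of these pairs. That run therefore gives no error rate or power for these data. The members and lists were chosen with earlier results of these data known. Members named with full values were HSPA5, HERPUD1, XBP1, the sensors and up to 4 per role by largest change. Others named were chosen after their values were seen. Promoters of SEC24D, DERL3, PDIA3 and DERL1 were not used here. Of each other list up to 4 genes qualified by largest change, and some are named.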

Additional observations from a re-analysis of the deposited data

How the results depend on the processing

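The count of members called stayed at 0 for VEM and for VEM+BOR against untreated under every alternative run, and for the comparisons with BOR libraries under all but those that left out BOR 1. Leaving out 1 library at a time gave 0 to 24 members called for BOR and 0 to 18 for VEM+BOR against BOR, and the higher value of each came without BOR 1. With the GC adjustment and without BOR 1 (chosen, like library-total scaling and the GC adjustment itself, after seeing the data) 22 members and 3855 genes were called for BOR, and the oxidoreductase median was 1.65. Genes called for BOR, 0 in the main test, were 35 with DESeq2 and 0 to 4008 with 1 library left out. For VEM, 7 in the main test, they were 0 with all 6 libraries in 1 fit or no filter, 40 by library total, 47 by upper quartile, and 0 to 17 with 1 library left out. For VEM+BOR, 30 in the main test, they were 64 with DESeq2, 87 with edgeR, 10 with GC adjustment, 89 by library total, 70 by upper quartile, 0 with all 6 libraries or no filter, and 0 to 52 with 1 library left out. For VEM+BOR against BOR they were 3 with DESeq2 and 0 to 3648 with 1 library left out. With 1 library left out the degradation median for BOR ranged from 0.55, without BOR 2, to 1.64, without BOR 1. It was 0.47 with the GC adjustment and without BOR 2. For VEM the left-out ranges were 0.077 to 0.22 for degradation, 0.26 to 0.39 for sensors and -0.42 to 0.049 for chaperones, and library totals gave 0.27 for degradation and 0.44 for sensors. For VEM+BOR they were 0.43 to 0.65 for degradation and 0.42 to 0.47 for sensors. The VEM+BOR sensor median was 0.39 with DESeq2, 0.39 with GC adjustment, 0.37 with edgeR and 0.32 by upper quartile, and the degradation median 0.49 with GC adjustment and 0.48 by upper quartile. The cause of these shifts was not tested. For VEM+BOR, leaving out 1 library gave 0.01 to 0.41 for chaperones and -0.18 to 0.12 for translocation. HSPA13 turned to 1.215 for BOR with the GC adjustment and without BOR 1. Among named members, 14 of 80 changes took the other sign without BOR 2, 11 without untreated 2 and 6 with GC adjustment. No paired analysis was possible because the labels carry no replicate numbers shared between groups. Count tests with VEM were not run. Each treated arm held 1 or 2 libraries, which limits the precision.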
